A study of Mus musculus with 20 samples.

Results

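AgRP neurons of the hypothalamus were compared across 2 differences at once: 5 libraries from fed mice lacking Phf6 in these cells (fed cKO) and 5 from wild-type mice fasted overnight. These 10 samples were chosen by genotype and feeding label from the 20 of the series. The comparison asks which parts of the hunger state fed cKO neurons reached and which they lacked. It differs in genotype and in feeding, so a difference cannot be assigned to either one. The 5 fed wild-type libraries are given beside it as the starting level, and they share libraries with both side comparisons used below.

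Wild-type mice carried AgRP-Cre/+ and Ai9/+. The cKO mice also carried Phf6 flox/y, so both genotypes carried the Cre driver and the tdTomato reporter, and the cKO libraries came from mice with the floxed allele on their X chromosome. All were littermates on a C57BL/6 background, aged 25 to 30 days. Fasted mice lost access to food at 5 pm on the day before collection and kept water. Each library was made from 1000 sorted tdTomato+ cells. Cre under the AgRP promoter marks cells that have expressed Agrp at any time, not only those that express it at collection. The labels do not say whether each library came from 1 mouse, so p-values measure the spread between these samples.

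AgRP neurons drive food seeking. They release the melanocortin antagonist AgRP, neuropeptide Y and GABA, and leptin and insulin restrain them while ghrelin excites them. Fasting raises their firing and with it the immediate early genes, whose transcription follows calcium and cAMP signals within minutes. Phf6 encodes a chromatin-associated protein with PHD-type zinc fingers that is mutated in Börjeson-Forssman-Lehmann syndrome.

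Phf6 (ENSMUSG00000025626, X:52912266-52956943, GRCm38, + strand) was checked first. Levels are in CPM, read counts brought to a common library total after TMM scaling. The 5 fed cKO libraries held 76.3, 68.5, 68.6, 75.3 and 65.0 CPM, and the 5 fasted wild-type libraries 142, 119, 116, 129 and 135 CPM. Every fed cKO library was below every fasted wild-type library, and fed wild type stood higher still at 276 ± 10.2 CPM (SD, n = 5). The log2 difference, fed cKO minus fasted wild type, was -0.86 ± 0.07 (SE, edgeR adjusted p = 5.7e-11). Counts cover the whole gene, so reads from exons outside the deleted part can remain in them. The source of the reads left in fed cKO was not tested.

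Of 13237 genes tested, 3871 were higher and 3701 lower in fed cKO than in fasted wild type at an edgeR adjusted p under 0.05, which is 57.2% of the genes (29.2% higher and 28.0% lower). By at least 2-fold, 1030 were higher and 774 lower. The 95% interval of the difference lay wholly within 1.5-fold either way for 4791 genes (36.2%), called within 1.5-fold below. Counts of list members below are read against these shares. In the side comparisons, fasting raised 3920 genes (29.6%) and lowered 4138 (31.3%) in wild type, 60.9% in all. Fed cKO neurons had 777 genes higher (5.87%) and 504 lower (3.81%) than fed wild type, 9.68% in all, and leaving out fed cKO replicate 2 left 332 lower. The median log2 difference over all genes was 0.03 for fed cKO minus fasted wild type, -0.03 for fasting and 0.01 for fed cKO minus fed wild type.

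Fed cKO libraries held 10604977 to 13573524 counts and fasted wild-type libraries 8494499 to 10000278. On the first principal component (48.7% of the variance) fed wild type lay at 48.5 to 49.6, fed cKO at 29.7 to 34.7 and fasted wild type at -52.8 to -38.2. Fasted wild-type replicates 1 and 2 stood apart from replicates 3 to 5 on the second component (-2.95 and -0.996 against 34.1 to 38.7), and no label separates them. Where leaving out either set changed the sign or the call of a named gene, this is given. Other means over the 5 fasted libraries can also hold such a split, as for Kcnab1, Rgs2, Chordc1 and Sdha. Summed markers of AgRP neurons were 26463 to 31084 CPM in fed cKO and 59177 to 84563 CPM in fasted wild type, and each of the 8 was detected. None of the 8 was higher and 5 were lower in fed cKO. Npy and Agrp, which fasting raises, make up most of this sum, so it does not measure the share of AgRP neurons. Summed oligodendrocyte markers were 82.6 to 103 CPM in fed cKO and 49.1 to 73.5 CPM in fasted wild type, with 3 of 4 tested members higher in fed cKO. Summed markers of other hypothalamic neurons were 184 to 370 and 416 to 1082 CPM, with 1 of 6 tested members higher and 5 lower in fed cKO. Astrocyte markers summed to 30.1 to 61.4 and 34.3 to 64.2 CPM, or to 4.45 to 7.70 and 5.97 to 23.7 CPM without Agt, with none of 5 tested members higher and 2 lower in fed cKO. Their defining gene Aqp4 was at 0 in all 5 fed cKO libraries and at 0.117, 0.517, 0, 0 and 0 CPM in fasted wild type, so it does not separate the groups. Microglial, vascular and erythrocyte lists each summed to 8.90 CPM or less in these 10 libraries. The part of other cells in the results below was not tested. In bulk samples, fewer cells of a type and less RNA per cell cannot be told apart.

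In a list of transcription factors linked to neuronal activity, the median differences from fed wild type were close in fed cKO and fasting. Single members went both ways. The list covers AP-1, Egr and Nr4a factors and also others, such as Mef2c and Crem, and 27 of its 30 genes were tested. Against fasted wild type, 11 were higher and 7 lower in fed cKO, 9 did not pass, and the median log2 difference was 0.04, beside 0.03 over all genes. Only 5 of the 27 were within 1.5-fold of the fasted level, against 36.2% of all genes. Against fed wild type, 14 rose and 2 fell in fed cKO with a median of 0.92, and in fasted wild type 15 rose and 8 fell with a median of 0.87. The middle member was Crem in fed cKO and Junb in fasting, so the close medians do not show that the same members rose alike. The median difference from fasted wild type ranged from -0.05 to 0.24 when single libraries were left out.

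Promoters of members of this list are printed because most members that passed were above fed wild type in both states. Each line gives the 250 bases before the RefSeq start (GRCm38.p6), 5′ to 3′ on the gene's strand. Capitals mark TGACG or its reverse complement CGTCA, the short form of the cAMP response element. The full element TGACGTCA, present before Btg2, holds 2 overlapping short sites.
Fos, chr12:85473640-85473889 (+ strand): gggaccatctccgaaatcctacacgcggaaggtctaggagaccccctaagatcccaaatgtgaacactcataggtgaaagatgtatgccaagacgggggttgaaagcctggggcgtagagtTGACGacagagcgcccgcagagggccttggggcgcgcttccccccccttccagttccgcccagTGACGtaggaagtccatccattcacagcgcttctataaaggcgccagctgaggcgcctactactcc
Nr4a1, chr15:101266596-101266845 (+ strand): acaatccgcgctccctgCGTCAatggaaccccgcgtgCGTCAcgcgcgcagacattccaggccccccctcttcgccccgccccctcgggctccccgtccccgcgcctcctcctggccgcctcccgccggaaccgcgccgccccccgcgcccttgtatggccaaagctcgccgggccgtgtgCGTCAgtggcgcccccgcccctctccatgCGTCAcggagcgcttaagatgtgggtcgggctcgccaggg
Nr4a3, chr4:48045055-48045304 (+ strand): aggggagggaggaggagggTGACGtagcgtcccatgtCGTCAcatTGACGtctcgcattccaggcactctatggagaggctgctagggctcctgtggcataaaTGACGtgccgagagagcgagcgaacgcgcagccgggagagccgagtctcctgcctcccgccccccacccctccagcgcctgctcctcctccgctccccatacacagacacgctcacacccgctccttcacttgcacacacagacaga
Junb, chr8:84978749-84978998 (- strand): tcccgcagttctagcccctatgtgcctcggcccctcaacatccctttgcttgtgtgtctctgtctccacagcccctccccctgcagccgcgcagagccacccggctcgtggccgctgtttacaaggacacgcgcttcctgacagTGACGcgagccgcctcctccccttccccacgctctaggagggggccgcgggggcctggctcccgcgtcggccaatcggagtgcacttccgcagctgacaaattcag
Btg2, chr1:134079156-134079405 (- strand): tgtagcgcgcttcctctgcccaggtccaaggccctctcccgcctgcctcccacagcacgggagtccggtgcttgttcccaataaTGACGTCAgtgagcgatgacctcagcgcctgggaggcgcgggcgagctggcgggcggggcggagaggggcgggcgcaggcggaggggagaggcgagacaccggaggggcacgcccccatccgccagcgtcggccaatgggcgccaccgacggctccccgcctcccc
Of the 27 tested factors, 22 had a promoter in the RefSeq table, and 13 of these (59.1%) held a short site on either strand. The promoters printed above all hold a site, so they do not stand for the factors without one. Among all tested genes with a promoter, 3099 of 10082 (30.7%) held one, and among ribosomal protein genes 24 of 57 (42.1%) did. Of other lists treated below, glucocorticoid and FoxO response genes had 37.5%, activity-induced effector genes 50.0% and granin and prohormone-processing genes 52.6%. The full element was present for 2 of the 22 factors (9.09%) and for 3.09% of all tested genes. It was present for 8.77% of ribosomal protein genes and for 4.17%, 11.5% and 15.8% of those other lists, in that order. In Fos the short sites begin 66 and 129 bases before the start, and Nr4a1 and Nr4a3 have 4 each. These are matches of letters, and binding was not measured.

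Fos (12:85473890-85477273, + strand), the AP-1 factor used as a marker of recent firing, was at 114, 123, 111, 126 and 128 CPM in fed cKO. Fasted wild type held 144, 135, 144, 168 and 163 CPM and fed wild type 3.45, 1.94, 2.36, 3.43 and 3.37 CPM. The fed cKO libraries all lay below the fasted ones and far above the fed wild-type ones. Fed cKO stood at 79.8% of the fasted level, a log2 difference of -0.33 ± 0.10 with an interval of -0.53 to -0.12 (edgeR adjusted p = 0.0079). With fasted replicates 3 to 5 left out, the difference was -0.20 and no longer passed (adjusted p = 0.18).

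Egr1, a zinc-finger factor of the same early wave, was at 31.2, 48.6, 33.8, 34.1 and 31.8 CPM in fed cKO and 49.6, 60.1, 39.2, 45.9 and 45.3 CPM in fasted wild type. Fed wild type averaged 0.805 ± 0.443 CPM (SD, n = 5). The groups overlapped through fed cKO replicate 2, and the difference of -0.42 ± 0.14 (edgeR adjusted p = 0.012) did not pass without fasted replicates 1 and 2 (-0.28, adjusted p = 0.092). Nr4a1, an orphan nuclear receptor, was at 18.6, 12.3, 14.4, 17.4 and 8.04 CPM in fed cKO and 23.1, 15.5, 14.8, 14.9 and 13.9 CPM in fasted wild type. Those ranges overlapped, and the interval of the difference, -0.66 to 0.22, reached past 1.5-fold on the lower side, so equal levels were not shown (edgeR adjusted p = 0.39).

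Junb, an AP-1 partner, exceeded the fasted level. Fed cKO libraries held 56.5, 52.3, 56.8, 52.9 and 52.4 CPM, fasted wild type 49.8, 50.8, 38.3, 41.9 and 35.3 CPM, and fed wild type 23.7 ± 2.73 CPM (SD, n = 5). The groups did not overlap and the difference was 0.33 ± 0.10 (edgeR adjusted p = 0.0058), but it did not pass without fasted replicates 3 to 5 (0.12, adjusted p = 0.39) or with offsets for GC content and length (0.11, adjusted p = 0.38). Nr4a3 also stood higher, at 6.39 against 3.57 CPM (log2 difference 0.84 ± 0.25, edgeR adjusted p = 0.0056), with overlapping libraries, and did not pass without fasted replicates 3 to 5 (0.52, adjusted p = 0.17).

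Crem, a cAMP-responsive modulator, showed how far the fasted libraries differed among themselves. It was at 149, 147, 148, 150 and 136 CPM in fed cKO and 231, 196, 136, 135 and 128 CPM in fasted wild type, against 77.4 ± 4.42 CPM in fed wild type (SD, n = 5). The difference was -0.18 ± 0.11 (edgeR adjusted p = 0.18), -0.53 against replicates 1 and 2 alone (adjusted p = 2.7e-06), -0.25 without replicate 5 (adjusted p = 0.048) and 0.13 against replicates 3 to 5 alone (adjusted p = 0.14). Btg2, an antiproliferative early gene, had the same split, with 138, 138, 71.6, 61.0 and 57.7 CPM in fasted wild type and 65.3 to 80.7 CPM in fed cKO. Its difference of -0.39 ± 0.17 was at the threshold (edgeR adjusted p = 0.0498) and became 0.16 against replicates 3 to 5 alone. Without fasted replicate 1 or 2 or fed cKO replicate 1, 3, 4 or 5 it did not pass (adjusted p 0.068 to 0.27), nor with the DESeq2 Wald test (adjusted p = 0.080), with GC and length offsets (adjusted p = 0.097) or in a fit of the 10 libraries alone (adjusted p = 0.12). Ier2, another immediate early gene, was at 9.66 against 12.5 CPM (log2 difference -0.36 ± 0.21, edgeR adjusted p = 0.14) and passed only without fed cKO replicate 2 (-0.55, adjusted p = 0.029).

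Other AP-1 members remained below the fasted level. Fosl2 was at 7.42, 7.45, 7.43, 7.24 and 5.62 CPM in fed cKO and 22.1, 15.5, 11.8, 10.5 and 13.6 CPM in fasted wild type, with 1.01 CPM in fed wild type. No libraries overlapped, and the log2 difference was -1.06 ± 0.19 (edgeR adjusted p = 2.9e-05). Fosb averaged 1.15 against 2.98 CPM (log2 difference -1.38 ± 0.35, edgeR adjusted p = 0.0013). Fosl1 had 0, 3, 2, 0 and 0 counts in fed cKO and 9, 20, 8, 18 and 9 in fasted wild type, and none in fed wild type, and 57.2% of its exon length overlaps Ccdc85b on the other strand in a library kit that does not keep strand.

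Another set of these factors was low in fasted wild type and stood near the fed level in fed cKO. Jun, the AP-1 partner of Fos, was at 48.3, 48.4, 47.8, 51.2 and 60.4 CPM in fed cKO and 15.2, 15.5, 15.7, 14.9 and 14.6 CPM in fasted wild type. Fed wild type held 45.5 to 51.9 CPM, inside which 4 of the 5 fed cKO libraries lay. The difference from fasted wild type was 1.76 ± 0.09 on the log2 scale, or 3.38-fold (edgeR adjusted p = 5.1e-15). Mef2c, a calcium-regulated MADS-box factor of neurons, was at 16.3, 19.0, 19.3, 12.6 and 21.1 CPM against 2.22, 2.97, 1.08, 2.14 and 2.98 CPM, 7.79-fold apart (edgeR adjusted p = 2.8e-11). Its relatives Mef2d (log2 difference 1.08 ± 0.21) and Mef2a (0.61 ± 0.09) were higher in fed cKO too, with no overlap between libraries and edgeR adjusted p-values of 9.7e-05 and 2.8e-06. Creb1, the cAMP response element binding factor, lay between the fed and fasted wild-type levels at 24.3 CPM (36.5 fed, 16.4 fasted), and its difference of 0.57 ± 0.14 (edgeR adjusted p = 0.00093) did not pass without fasted replicates 3 to 5 (0.26, adjusted p = 0.14).

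**Figure D1:**
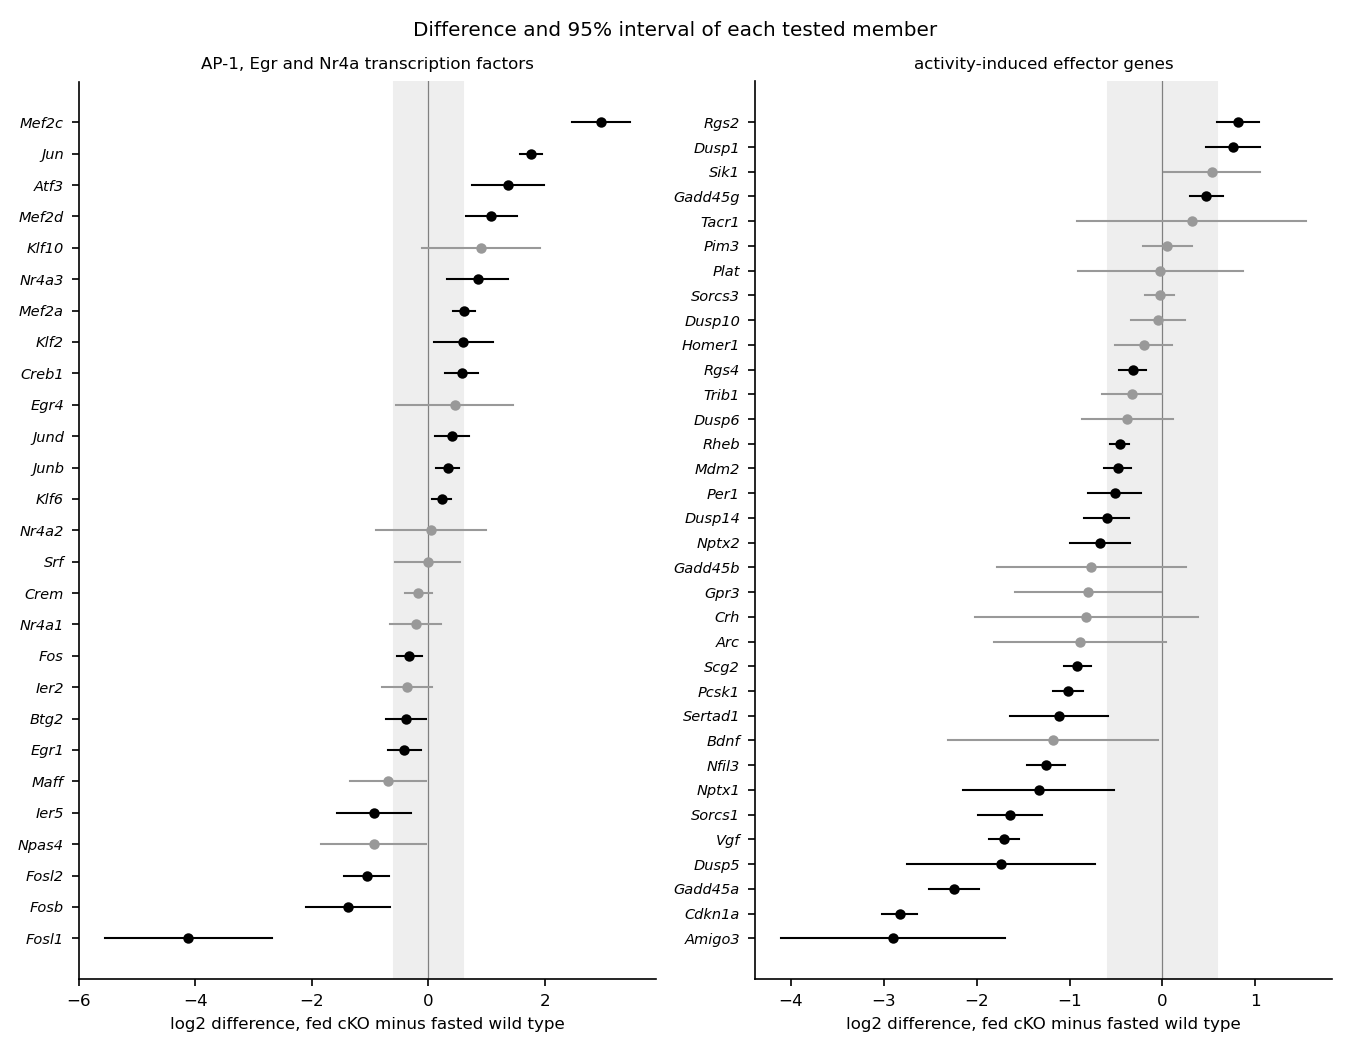
Log2 difference, fed cKO minus fasted wild type, with its 95% interval for each tested activity-related transcription factor (left) and effector gene (right). Black marks pass an edgeR adjusted p under 0.05, grey marks do not, and the shaded band is 1.5-fold either way. Factors spread to both sides of 0 (11 higher, 7 lower), and effectors lie mostly to the left (3 higher, 17 lower).

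Of the effector genes of neuronal activity, fewer were raised in fed cKO than in fasted wild type. Of 40 genes listed, 34 were tested. Fasting raised 30 and lowered 2 of them in wild type (median log2 difference 1.33), and fed cKO had 13 raised and none lowered against fed wild type (median 0.39). Directly against fasted wild type, 3 were higher and 17 lower in fed cKO, with a median of -0.63. Both side comparisons share the fed wild-type libraries.

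Dusp1, Rgs2 and Sik1, which dampen kinase and G-protein signals, lay at or above the fasted level. Dusp1 held 51.8, 44.3, 47.3, 43.4 and 46.3 CPM in fed cKO, 21.7, 23.5, 34.5, 27.0 and 31.0 CPM in fasted wild type and 19.7 ± 3.05 CPM in fed wild type (SD, n = 5). All fed cKO libraries exceeded all fasted ones (log2 difference 0.76 ± 0.14, edgeR adjusted p = 4.4e-05). Rgs2 stood at 1394 against 795 CPM, but fasting lowered it from 1168 CPM. Sik1 was at 7.55 against 5.22 CPM (log2 difference 0.53 ± 0.25, edgeR adjusted p = 0.073), and passed without fasted replicate 1 (adjusted p = 0.043), without replicates 1 and 2 (adjusted p = 0.020) and in a fit of the 10 libraries alone (adjusted p = 0.033). Trib1, a pseudokinase, was at 9.04 against 11.3 CPM and 2.43 CPM in fed wild type (log2 difference -0.32 ± 0.16, edgeR adjusted p = 0.080), and passed without fasted replicate 5 (-0.42, adjusted p = 0.025) and with offsets for GC content and length (-0.48, adjusted p = 0.011). Rgs4 reached 548 against 685 CPM (410 CPM in fed wild type), within 1.5-fold.

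Cdkn1a (17:29090976-29100727, + strand), the cell-cycle inhibitor p21 and a common stress and FoxO target, was raised in fed cKO but stayed far short of fasting. Fed cKO libraries held 44.9, 45.5, 43.9, 41.5 and 46.7 CPM, fasted wild type 372, 322, 284, 313 and 290 CPM, and fed wild type 5.11, 4.09, 5.14, 4.36 and 3.53 CPM. The 3 groups did not overlap. Fed cKO stood at 14.1% of the fasted level (log2 difference -2.83 ± 0.09, edgeR adjusted p = 8.5e-19) and 3.31 log2 units above fed wild type. Neither RefSeq promoter of the gene holds a short cAMP site in its 250 bases, although the gene was raised in fed cKO. Whether such sites bear on the levels of any gene here was not tested. The downstream promoter is shown.
Cdkn1a, chr17:29093519-29093768 (+ strand): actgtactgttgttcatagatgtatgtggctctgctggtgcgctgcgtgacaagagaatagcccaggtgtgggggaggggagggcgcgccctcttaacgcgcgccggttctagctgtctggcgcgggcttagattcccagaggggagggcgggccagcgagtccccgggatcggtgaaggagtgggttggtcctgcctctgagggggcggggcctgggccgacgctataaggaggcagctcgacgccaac

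Gadd45a, a growth arrest gene, stood near the fed level in fed cKO. It was at 7.77, 7.66, 8.34, 6.48 and 6.45 CPM in fed cKO, 41.7, 31.6, 34.6, 30.6 and 35.0 CPM in fasted wild type and 7.58 ± 1.54 CPM in fed wild type (SD, n = 5). The difference was -2.24 ± 0.13 (edgeR adjusted p = 5.1e-14), and 19.1% of its exon length overlaps a model on the other strand. Vgf, a secreted activity-induced precursor, was at 103, 119, 113, 111 and 125 CPM against 385, 404, 375, 343 and 359 CPM and 71.6 CPM in fed wild type (log2 difference -1.71 ± 0.08, edgeR adjusted p = 5.1e-16). Nfil3, a bZIP repressor, lay between as well, at 22.1 CPM with 52.7 CPM in fasted and 9.79 CPM in fed wild type (log2 difference -1.25 ± 0.10, edgeR adjusted p = 1.6e-11). Sorcs1, a sorting receptor, was at 8.31 against 25.8 CPM, and its level against fed wild type did not pass (edgeR adjusted p = 0.27).

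**Figure D2:**
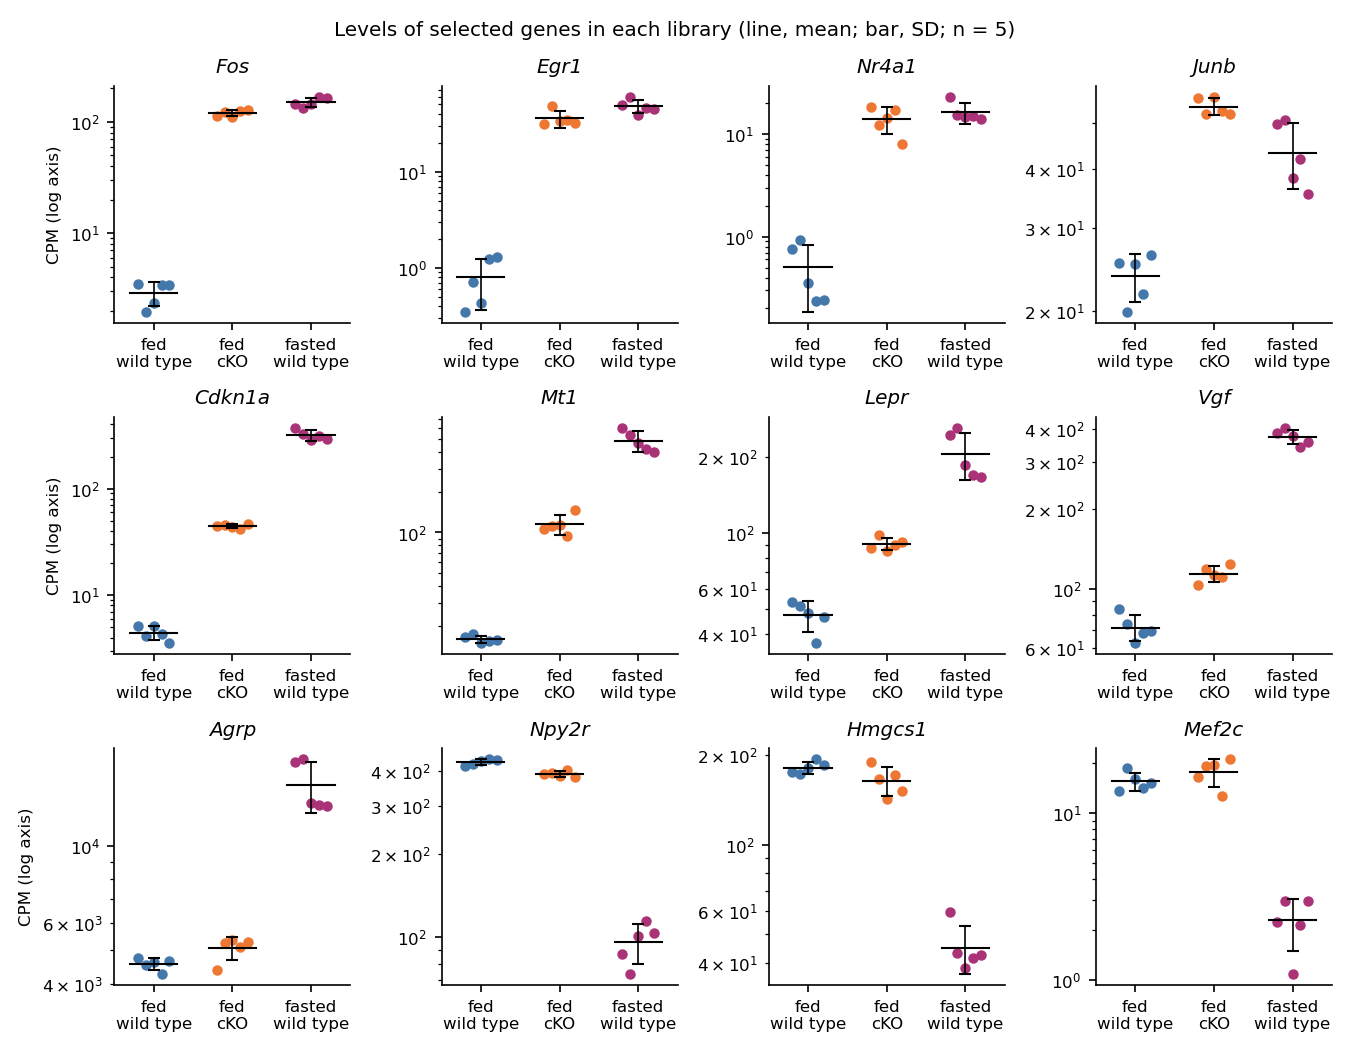
CPM on a log axis for 12 genes in each of 5 libraries of fed wild type, fed cKO and fasted wild type, with mean and SD. Fos, Egr1, Nr4a1 and Junb in fed cKO lie near or above the fasted level, Cdkn1a, Mt1, Lepr and Vgf lie between, and Agrp, Npy2r, Hmgcs1 and Mef2c lie near the fed wild-type level.

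Glucocorticoid and FoxO response genes, which report stress hormone and low insulin signals, were partly raised. Of 31 listed, 28 were tested. Fed cKO had 15 higher and none lower than fed wild type (median 0.62), and fasting had 18 higher and 5 lower (median 1.41). Compared directly, 5 were higher and 15 lower in fed cKO than in fasted wild type, with a median of -0.51, and 4 were within 1.5-fold.

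Mt1, a metallothionein that binds zinc, was at 106, 112, 114, 94.2 and 147 CPM in fed cKO, 604, 533, 464, 417 and 396 CPM in fasted wild type and 14.9 to 17.4 CPM in fed wild type. The groups were separate, with a log2 difference of -2.07 ± 0.15 (edgeR adjusted p = 5.6e-12). Mt2 had 25.4 against 158 CPM (3.22 CPM in fed wild type), with 73.5% of its exon length under an antisense model, and its log2 difference of -2.62 was -1.97 with GC and length offsets. Sgk1, a kinase induced by glucocorticoids, was at 172, 157, 172, 172 and 159 CPM against 357, 325, 270, 337 and 301 CPM, and 44.3 ± 2.98 CPM in fed wild type (SD, n = 5). All fed cKO libraries lay below the fasted ones and above the fed wild-type ones (log2 difference -0.93 ± 0.07, edgeR adjusted p = 5.9e-12).

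Fkbp5, a cochaperone of the glucocorticoid receptor, was nearer to fed than to fasted wild type, with 20.9 CPM in fed cKO, 61.0 CPM fasted and 14.8 CPM fed wild type (log2 difference from fasted -1.54 ± 0.12, edgeR adjusted p = 1.4e-11). Zbtb16 (11.3, 26.8 and 3.27 CPM) and Klf9 (21.9, 39.9 and 11.1 CPM), both zinc-finger factors, lay between the fasted and fed wild-type means and below every fasted library. Errfi1, an inhibitor of EGF receptor signals, was at 61.7 against 91.0 CPM (34.7 CPM in fed wild type). Cited2, a CBP/p300-binding coregulator, was near the fasted level, at 86.7, 75.9, 80.9, 78.6 and 84.0 CPM against 103, 108, 92.2, 96.3 and 81.2 CPM, within 1.5-fold, and its difference of -0.24 ± 0.08 (edgeR adjusted p = 0.015) did not pass without fasted replicate 2 (-0.20, adjusted p = 0.051) or without replicates 1 and 2 (-0.16, adjusted p = 0.14). Txnip, which binds thioredoxin and limits glucose uptake, was at 5.98 and 8.54 CPM with 0.959 CPM in fed wild type (edgeR adjusted p = 0.16 between the first pair). Pdk2, a pyruvate dehydrogenase kinase, was 2.70-fold higher in fed cKO (edgeR adjusted p = 8.3e-10), and its difference from fed wild type did not pass (edgeR adjusted p = 0.32).

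The 2 feeding peptides, both raised by fasting, were lower in fed cKO. Agrp (8:105566698-105637393, - strand) was at 4369, 5242, 5347, 5100 and 5272 CPM in fed cKO, 17470, 17826, 13245, 13105 and 12998 CPM in fasted wild type and 4750, 4516, 4607, 4259 and 4637 CPM in fed wild type. No fed cKO library came near a fasted one, and they overlapped the fed wild-type range. Fed cKO stood at 33.9% of the fasted level (log2 difference -1.56 ± 0.09, edgeR adjusted p = 1.9e-14), and its difference from fed wild type was 0.15 (edgeR adjusted p = 0.29). Of the exon length of Agrp, 11.3% overlaps another model on the same strand.

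Npy (6:49822710-49829507, + strand) was at 21486, 25221, 24021, 22508 and 24127 CPM in fed cKO, 66347, 65253, 46253, 46766 and 45347 CPM in fasted wild type and 15645 to 17389 CPM in fed wild type. Its libraries formed 3 separate ranges, with fed cKO nearer to fed wild type (log2 difference 0.49 from it, edgeR adjusted p = 0.00054) than to fasted wild type (-1.20 ± 0.09, edgeR adjusted p = 1.3e-11). With offsets for GC content and length the latter was -0.46 (adjusted p = 1.1e-07). The promoter in the RefSeq table holds no short cAMP site in these 250 bases, and whether this bears on its level was not tested.
Npy, chr6:49822460-49822709 (+ strand): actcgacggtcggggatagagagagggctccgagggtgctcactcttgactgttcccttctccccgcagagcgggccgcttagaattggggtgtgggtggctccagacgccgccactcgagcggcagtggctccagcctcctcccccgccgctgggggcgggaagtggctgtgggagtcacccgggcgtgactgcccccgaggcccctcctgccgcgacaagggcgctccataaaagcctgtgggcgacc

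Receptors for feeding signals included some raised partway and some that stayed near the fed level. Of 29 listed, 23 were tested, 7 were higher and 11 lower in fed cKO than in fasted wild type, and the median was -0.24. That median lay between -0.11 and -0.39 over the alternatives, with the same sign. Fasting raised 12 and lowered 5, and fed cKO had 6 raised and 1 lowered against fed wild type.

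Lepr, the leptin receptor, was at 87.7, 98.3, 84.8, 89.5 and 92.4 CPM in fed cKO, 245, 262, 185, 171 and 167 CPM in fasted wild type and 36.6 to 53.6 CPM in fed wild type. The ranges were separate, and fed cKO reached 44.0% of the fasted level (log2 difference -1.18 ± 0.13, edgeR adjusted p = 1.5e-08). Ghsr, the ghrelin receptor, was at 63.4, 71.2, 69.8, 71.2 and 78.2 CPM against 160, 133, 119, 124 and 135 CPM and 45.7 CPM in fed wild type (log2 difference -0.92 ± 0.10, edgeR adjusted p = 1.9e-08). Prlr, the prolactin receptor, came nearer, at 25.5 CPM with 33.3 CPM fasted and 13.2 CPM fed wild type, with overlapping libraries (log2 difference -0.39 ± 0.12, edgeR adjusted p = 0.0073). Hcrtr2, an orexin receptor, was at 4.56 CPM with 9.42 CPM fasted and 0.788 CPM fed wild type.

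Mchr1, the receptor of melanin-concentrating hormone, was the one member of these named that stood above both wild-type levels, at 32.2 CPM with 23.9 CPM fasted and 14.5 CPM fed. Its fasted libraries held 17.1, 16.4, 23.2, 32.8 and 30.2 CPM and overlapped the fed cKO range of 30.2 to 35.2 CPM. The difference of 0.43 ± 0.17 (edgeR adjusted p = 0.036) did not pass without any one of fasted replicates 1, 2 and 3 or fed cKO replicates 1, 2 and 3 (adjusted p 0.051 to 0.11), nor without fasted replicates 1 and 2 together (0.16, adjusted p = 0.41).

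Npy2r, the presynaptic Y2 autoreceptor, fell with fasting and stayed up in fed cKO. Its libraries held 390, 394, 385, 403 and 381 CPM in fed cKO, 86.7, 73.5, 101, 115 and 103 CPM in fasted wild type and 417 to 443 CPM in fed wild type. Fed cKO was 4.07-fold above fasted wild type (log2 difference 2.02 ± 0.08, edgeR adjusted p = 7.3e-17). Mc3r, a melanocortin receptor, was at 91.4 against 43.0 CPM (106 CPM in fed wild type), and Gabbr2, a subunit of the GABA-B receptor, at 21.1 against 7.03 CPM (24.7 CPM in fed wild type). Neither passed against fed wild type (edgeR adjusted p = 0.21 and 0.32). Even so, every fed cKO library of Mc3r (86.5 to 94.9 CPM) lay below every fed wild-type one (101 to 113 CPM).

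Leptin and insulin signalling genes had 16 of 33 tested members higher and 4 lower in fed cKO than in fasted wild type, with a median of 0.18. Socs3, the feedback inhibitor of leptin receptor signalling, had moved partway: 4.89, 7.45, 8.90, 11.1 and 5.41 CPM in fed cKO, 0.818, 1.16, 1.95, 4.39 and 2.43 CPM in fasted wild type and 13.5 to 18.4 CPM in fed wild type. No ranges overlapped (log2 difference 1.79 ± 0.29, edgeR adjusted p = 6.8e-06), and against fasted replicates 1 and 2 alone the difference was 2.94. Irs2, an insulin receptor substrate, was at 38.8 CPM, above both fasted (24.9 CPM) and fed (26.7 CPM) wild type, with differences of 0.64 (edgeR adjusted p = 5.3e-05) and 0.54 (edgeR adjusted p = 0.0032). Stat5b, a cytokine-signal transcription factor, and Akt1, a kinase of the insulin pathway, were 1.41 ± 0.13 and 0.70 ± 0.09 log2 units higher in fed cKO than in fasted wild type. Foxo1, the forkhead factor that insulin keeps out of the nucleus, was within 1.5-fold, at 106 against 116 CPM with 85.2 CPM in fed wild type (log2 difference -0.12 ± 0.07, edgeR adjusted p = 0.14). It passed without fasted replicate 3 (-0.17, adjusted p = 0.044), against fasted replicates 1 and 2 alone (-0.25, adjusted p = 0.0066) and with offsets for GC content and length (-0.18, adjusted p = 0.027).

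The secretory pathway of peptide neurons was raised less in fed cKO than in fasted wild type. Among 23 tested granin and prohormone-processing genes, 14 were lower and 3 higher in fed cKO, with a median of -0.32 that was -0.19 against fasted replicates 1 and 2 alone. Against fed wild type, 8 were higher and none lower. Scg2, a granin of dense-core vesicles, was at 3704, 4176, 3796, 3643 and 3720 CPM against 8239, 7678, 6090, 6943 and 6993 CPM, and 2856 ± 30.1 CPM in fed wild type (SD, n = 5). The ranges did not overlap (log2 difference -0.92 ± 0.07, edgeR adjusted p = 1.1e-11). Pcsk1, a prohormone convertase, was at 97.3 against 197 CPM, Pcsk2 at 53.9 against 88.1 CPM, and Scg3 at 284 against 416 CPM, each with separate ranges. Nucb2, the precursor of nesfatin, was at 70.6 against 196 CPM and did not pass against fed wild type (edgeR adjusted p = 0.14). Chga, a granin, was higher than in both wild-type groups at 222 CPM (162 fasted, 153 fed), with a log2 difference from fasted of 0.45 ± 0.08 (edgeR adjusted p = 2.0e-05).

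Of 29 other neuropeptide genes, 16 were tested, and 9 were lower and none higher in fed cKO, with a median of -1.01 that was -0.66 with offsets for GC content and length. Several are also markers of neighbouring neurons, whose summed level differed between the groups as given above. Gal, encoding galanin, was at 18.8, 9.58, 9.67, 12.02 and 11.9 CPM against 33.2, 33.1, 34.9, 36.8 and 31.8 CPM and 11.3 CPM in fed wild type. All fasted libraries were above all fed cKO ones (log2 difference -1.46 ± 0.17, edgeR adjusted p = 2.2e-08). Pdyn, the dynorphin precursor, was at 14.1 against 33.6 CPM, with 8.52 CPM in fed wild type. Nts, encoding neurotensin, varied between libraries, with 23.0, 47.3, 4.62, 23.4 and 84.6 CPM in fed cKO, 135, 237, 56.2, 35.0 and 54.0 CPM in fasted wild type and 1.16 CPM in fed wild type. The groups overlapped, and the difference of -1.48 ± 0.46 (edgeR adjusted p = 0.0071) did not pass without fasted replicate 2 (-0.93, adjusted p = 0.065), without replicates 1 and 2 (-0.41, adjusted p = 0.41; -2.32 against those 2 alone) or with GC and length offsets (-0.92, adjusted p = 0.071). Sst, encoding somatostatin, was at 150, 125, 352, 222 and 186 CPM in fed cKO, 323 to 803 CPM in fasted and 281 to 490 CPM in fed wild type. It was lower than in both, with log2 differences of -1.29 ± 0.25 (edgeR adjusted p = 5.7e-05) and -0.85 ± 0.24 (edgeR adjusted p = 0.025), though fed cKO replicate 3 overlapped both groups. Adcyap1, the precursor of PACAP, fell with fasting and was within 1.5-fold, at 14.0 against 12.1 CPM with 25.2 CPM in fed wild type.

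Cytosolic ribosomal protein genes stayed near the fed level. Of 78 tested ribosomal protein genes, all 78 were lower in fed cKO than in fasted wild type, with a median of -0.88 (-0.68 with GC and length offsets) and a range from -1.27 for Rpl30, at 0.543 against 1.34 CPM, to -0.42 for Rpl3, at 1172 against 1571 CPM. Rpl30 did not pass without fasted replicate 2 (-1.07, adjusted p = 0.057) or replicates 1 and 2 (-0.81, adjusted p = 0.22). Fasting raised 77 of them, with a median of 0.87, and none passed in either direction between fed cKO and fed wild type, with a median of 0.00. Rpl10 was at 479, 487, 502, 490 and 541 CPM in fed cKO and 1161, 1197, 1087, 1068 and 1020 CPM in fasted wild type, against 481 ± 13.5 CPM in fed wild type (SD, n = 5). Rps2 was at 303 CPM in fed cKO, 559 CPM fasted and 314 CPM fed. Many ribosomal protein genes have near-identical pseudogene copies, and how such reads were counted is not given in the sources used here.

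Nuclear genes of oxidative phosphorylation, which build the respiratory chain, had 63 of 75 tested members lower and 5 higher in fed cKO, with a median of -0.51. Fasting raised 63 and lowered 5, and fed cKO against fed wild type had 1 raised and none lowered. With GC and length offsets the counts became 42 lower and 12 higher and the median -0.18. Ndufa12, a small complex I subunit, was at 195 against 381 CPM and Cox4i1, of complex IV, at 962 against 1605 CPM. Sdha (log2 difference 0.54 ± 0.13) and Ndufs1 (0.40 ± 0.08), catalytic subunits, were higher in fed cKO. For Sdha the libraries of the groups overlapped in CPM. Its fasted replicates held 2128, 1680, 3373, 3801 and 4192 counts, lowest in replicates 1 and 2. Proteasome genes followed with 24 of 33 lower and 1 higher, with a median of -0.42, and Psmb3 at 280 against 569 CPM.

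Endoplasmic reticulum folding genes had 30 of 38 lower and 1 higher in fed cKO, with a median of -0.54, while fed cKO against fed wild type had none higher and 4 lower. Dnajb9, an IRE1-regulated cochaperone, was at 131, 130, 128, 118 and 120 CPM in fed cKO, 295, 306, 312, 326 and 346 CPM in fasted wild type and 113 ± 6.74 CPM in fed wild type (SD, n = 5). The fasted libraries stood 2.53-fold above fed cKO (edgeR adjusted p = 1.7e-16). Manf, a secreted folding factor, was at 231 against 606 CPM, the translocon genes Sec61b at 214 against 530 CPM and Ssr2 at 216 against 557 CPM, and the lumenal chaperone Hspa5 at 1182 against 2025 CPM. Xbp1, the factor that IRE1 splices, was at 293 against 435 CPM. Sel1l, of the degradation complex, was the 1 member higher in fed cKO (log2 difference 0.18 ± 0.08), with overlapping libraries. It did not pass in 12 of the 20 alternatives, among them those without fed cKO replicate 1, 2 or 4 or fasted replicate 1, 2 or 3. Without fasted replicates 1 and 2 together its difference was 0.088 (edgeR adjusted p = 0.36). In the related ATF4 list, 6 of 22 were higher and 10 lower, with Atf4 itself at 101 against 142 CPM (81.1 CPM in fed wild type) and its target Ddit3 at 41.0 against 72.8 CPM (39.4 CPM in fed wild type).

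Cholesterol synthesis genes showed the reverse pattern. Of 26 tested, 20 were higher and 3 lower in fed cKO than in fasted wild type, with a median of 0.81. Fasting lowered 18 and raised 3, and fed cKO against fed wild type had none higher and 1 lower. Hmgcs1, an early enzyme of the pathway, was at 189, 166, 142, 171 and 151 CPM in fed cKO, 59.6, 43.3, 38.4, 41.6 and 42.5 CPM in fasted wild type and 172 to 194 CPM in fed wild type. Fed cKO was 3.64-fold above fasted wild type (edgeR adjusted p = 6.2e-15), and 12.1% of the exon length lies under an antisense model. Srebf2, the factor that activates the pathway, was at 33.3 against 10.4 CPM, Idi1 at 43.0 against 11.4 CPM and Sqle at 77.4 against 28.9 CPM, with no overlap between libraries. Insig2, which retains the SREBP complex in the endoplasmic reticulum, was 1 of the 3 members lower in fed cKO (log2 difference -0.34 ± 0.05, edgeR adjusted p = 1.7e-06).

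Cytosolic chaperones were higher as well, with 15 of 26 tested genes higher and 3 lower in fed cKO and a median of 0.46. Here fed cKO was not at the fed level for every member, since 10 of 26 were lower and none higher than in fed wild type. Hsph1, an HSP110 chaperone, was at 448 CPM with 166 CPM fasted and 563 CPM fed wild type. Chordc1, a cochaperone of HSP90, was at 158 CPM with 72.0 CPM fasted and 234 CPM fed, and Stip1 at 654, 328 and 756 CPM in that order. Hspa14, which binds ribosomes, went the other way at 63.8 against 156 CPM.

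**Figure D3:**
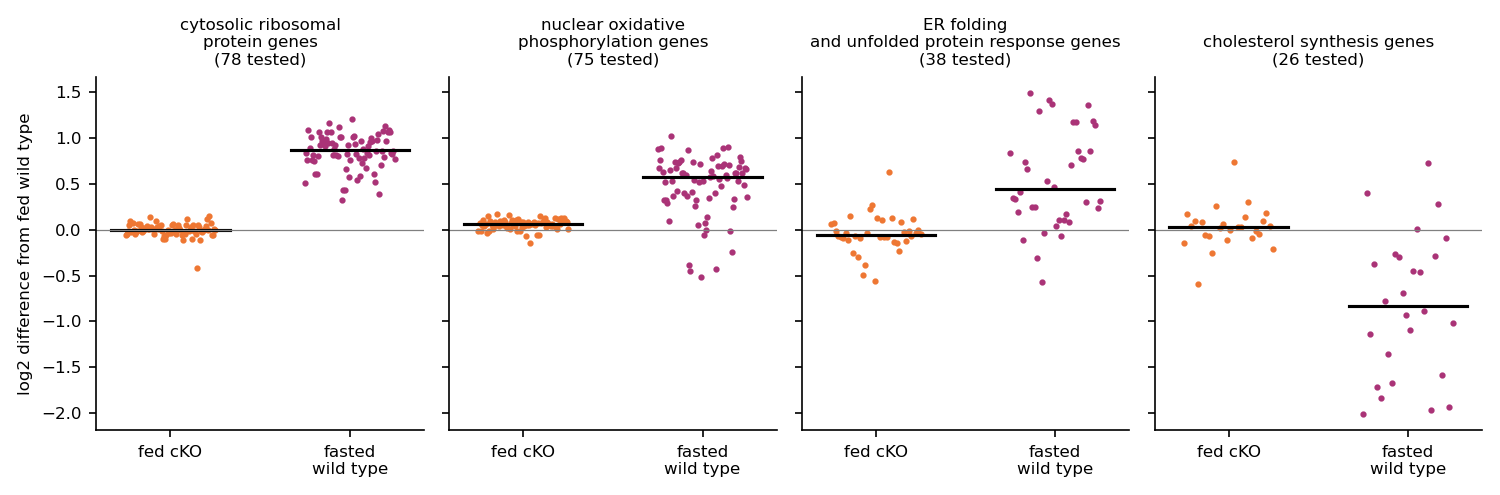
Log2 difference from fed wild type of each tested member of 4 gene lists, in fed cKO and in fasted wild type, with the list's median as a line. Fed cKO members gather near 0 in all 4 panels (medians -0.06 to 0.06), while fasted members have medians of 0.87, 0.57, 0.44 and -0.83. Both groups of points are set against the same fed wild-type libraries.

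Genes of energy use and of the neuronal membrane were more often higher than lower in fed cKO, though not equally clearly. Potassium channel genes had 13 of 36 higher and 5 lower (median 0.12, or -0.076 with GC and length offsets). Fatty acid synthesis genes had 4 of 15 higher and 2 lower (median 0.15, or 0.01 with those offsets). GABA genes had 10 of 23 higher and 3 lower (median 0.23). Fatty acid oxidation genes had 14 of 27 higher and 4 lower in fed cKO (median 0.35, or 0.20 without fasted replicates 1 and 2), with Cpt2, of the carnitine shuttle, 1.19 ± 0.15 log2 units higher. Glycolysis genes had 9 of 22 higher and 2 lower (median 0.21), with Pfkl, a phosphofructokinase, 1.51 ± 0.09 log2 units higher. Sodium, calcium and HCN channel genes had 16 of 29 higher and 3 lower (median 0.36), and glutamate receptor and scaffold genes 20 of 36 higher and 4 lower (median 0.35, or 0.17 with GC and length offsets), led by the scaffold gene Homer2 at 1.91 ± 0.25. Axon cytoskeleton genes had 13 of 19 higher and 2 lower (median 0.32). Nefl, the light neurofilament subunit, was at 13.4, 10.3, 8.69, 12.8 and 16.5 CPM against 1.05, 0.775, 1.95, 1.91 and 1.54 CPM, 8.36-fold apart (edgeR adjusted p = 1.3e-10), and 32.8% of its exon length overlaps Nefm. Against fasted replicates 1 and 2 alone its log2 difference was 3.74, and the list's median 0.67. Mapt, encoding tau, was at 298 against 146 CPM.

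Clock genes were split, with 9 of 19 higher and 8 lower in fed cKO. Some that fasting lowered stood near the fed level in fed cKO. Bhlhe40, a basic helix-loop-helix repressor, was at 41.9, 37.0, 40.4, 36.1 and 40.4 CPM against 3.62, 4.13, 6.62, 8.33 and 6.73 CPM, with 44.3 CPM in fed wild type. Fed cKO was 6.60-fold above fasted wild type (edgeR adjusted p = 1.1e-13), or 3.35 log2 units above fasted replicates 1 and 2 alone. Dbp, a PAR bZIP factor, was at 25.9 against 7.03 CPM, and Per3 at 17.6 against 5.23 CPM. Per1, which answers cAMP and glucocorticoids, lay between at 13.5 CPM with 19.3 CPM fasted and 6.01 CPM fed, and Per2 likewise at 7.80, 12.6 and 3.73 CPM. The difference of Per2 from fasted, -0.69 ± 0.20 (edgeR adjusted p = 0.0047), did not pass without fasted replicates 3 to 5 (-0.62, adjusted p = 0.053). Cry1, a repressor of the clock, was at 5.99 against 18.1 CPM (7.70 CPM in fed wild type), a log2 difference of -1.59 that was -0.79 against fasted replicates 1 and 2 alone. The time of day of collection was not given in the sources used here.

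**Figure D4:**
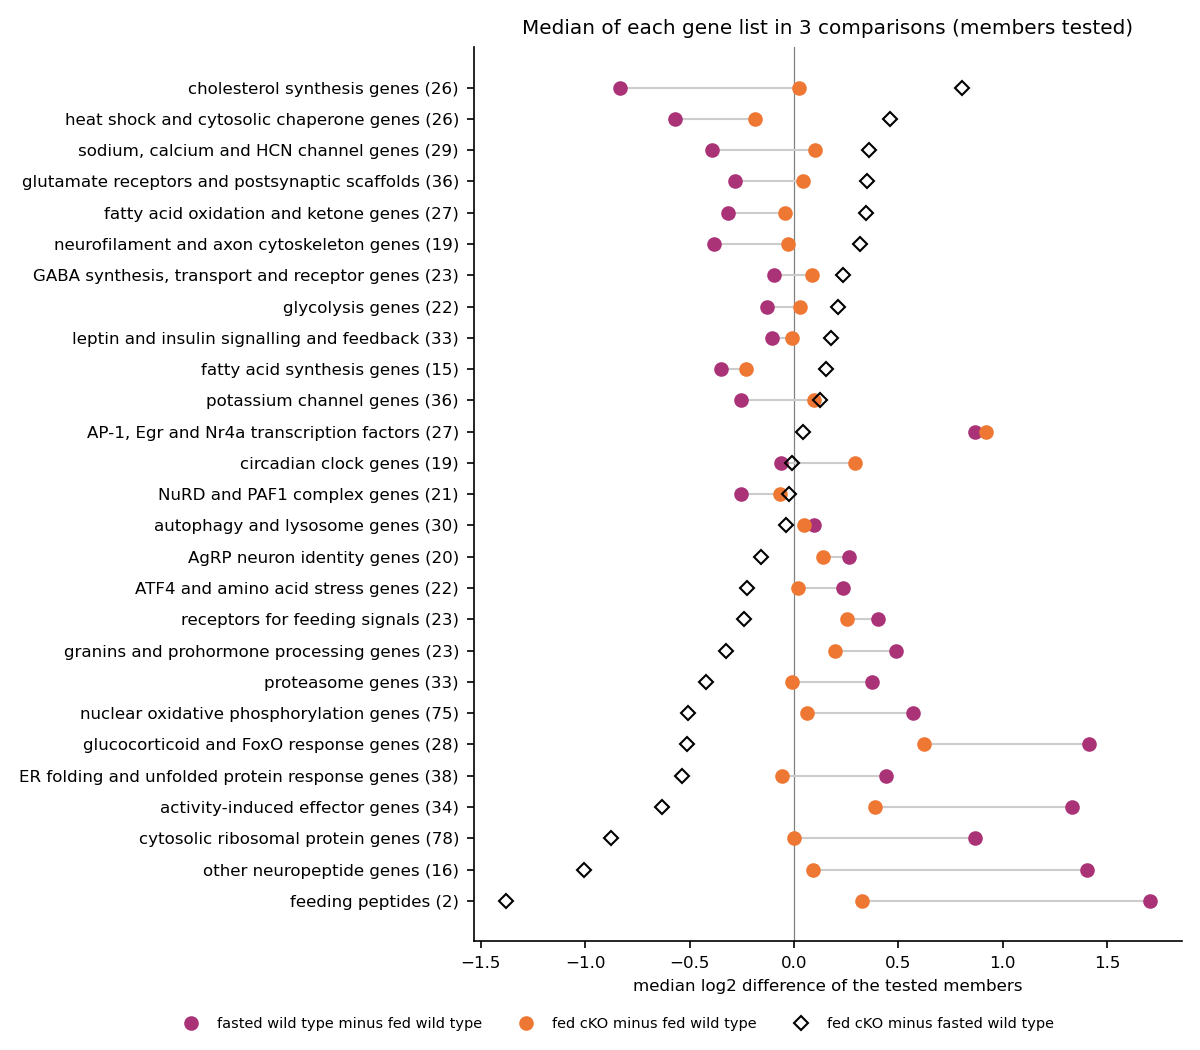
Median log2 difference of the tested members of each of 27 gene lists for fed cKO minus fed wild type, fasted wild type minus fed wild type and fed cKO minus fasted wild type. The 2 filled points lie close for the activity transcription factors, at 0.92 (the value of Crem) and 0.87 (that of Junb). They also lie close for autophagy and lysosome genes (0.05 and 0.10), whose medians are near 0. They lie farthest apart for the feeding peptides and other neuropeptides.

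Outside these lists, 5 of the 15 genes highest in fed cKO relative to fasted wild type by the naming rule are described here. For its highest and lowest genes the rule required separate groups and a passing p-value, so neither is an added result. Tnfaip8l3, a phosphoinositide transfer protein, was at 47.0, 39.2, 40.6, 35.5 and 30.6 CPM against 3.51, 3.10, 2.17, 2.93 and 3.97 CPM, 12.3-fold apart (edgeR adjusted p = 7.4e-13), with 44.7 CPM in fed wild type. Plch1, a phospholipase C, was 10.5-fold higher (20.7 against 1.94 CPM), Ldb2, a LIM-domain cofactor, 6.10-fold (89.6 against 14.6 CPM), Tppp3, a tubulin-binding protein, 5.92-fold (229 against 38.5 CPM) and Htr1a, a serotonin receptor, 5.36-fold (9.90 against 1.87 CPM). The log2 difference of Ldb2, 2.61, was 3.22 against fasted replicates 1 and 2 alone. None of these 5 passed between fed cKO and fed wild type (edgeR adjusted p 0.18 to 0.77).

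Among the lowest in fed cKO, Hmgb2, a chromatin protein, was at 8.46, 10.9, 14.9, 10.5 and 11.2 CPM against 69.8, 67.3, 95.7, 98.0 and 101 CPM, 7.67-fold apart (edgeR adjusted p = 1.1e-14), and at 8.94 CPM in fed wild type. Ccl17, a chemokine, was raised partway, at 19.3 CPM with 131 CPM fasted and 7.52 CPM fed, and its log2 difference of -2.75 was -1.90 with GC and length offsets. Ptk2b, a calcium-activated kinase, was at 5.61 CPM with 28.3 CPM fasted and 1.08 CPM fed, and Kcnab1, a potassium channel beta subunit, at 26.8 CPM with 135 CPM fasted and 11.0 CPM fed. The fasted replicates of Kcnab1 held 1604, 1469, 794, 903 and 1003 counts. Kcnab1 was the lowest of the 36 tested potassium channel genes, of which 13 were higher and 5 lower in fed cKO. Arg2, a mitochondrial arginase, was at 7.02 against 41.5 CPM with 8.83 CPM in fed wild type. Slco1a1, an organic anion transporter, was at 3.43 against 20.7 CPM, with fasted replicates at 31.0, 37.6, 10.8, 13.1 and 10.9 CPM, and its log2 difference of -2.57 was -1.75 without replicates 1 and 2 and -3.29 without replicates 3 to 5.

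Serpina3h and Fkbp11 stood below both wild-type groups in fed cKO. Serpina3h, a serine protease inhibitor, was at 6.63, 7.59, 6.31, 5.62 and 5.76 CPM in fed cKO and 34.5, 45.5, 26.8, 31.4 and 29.3 CPM in fasted wild type, with 31.5 ± 4.25 CPM in fed wild type (SD, n = 5). No libraries overlapped with either wild-type group (log2 difference from fasted -2.39 ± 0.16, edgeR adjusted p = 3.9e-13). The naming rule required the separation from fasted wild type and the passing p-value, but not the separation from fed wild type. The gene belongs to a cluster of close copies between which reads can be split. Fkbp11, an endoplasmic reticulum prolyl isomerase, was at 20.4 CPM, below both fasted (96.9 CPM) and fed (32.4 CPM) wild type. Rbbp7, a histone-binding subunit of NuRD, a complex to which PHF6 binds, was at 683 against 1477 CPM with 587 CPM in fed wild type (log2 difference -1.11 ± 0.05, edgeR adjusted p = 3.8e-16). It was the lowest of 21 tested NuRD and PAF1 complex genes, so it does not stand for them. Of these, 7 were higher and 6 lower in fed cKO than in fasted wild type, with a median of -0.02.

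Among genes within 1.5-fold of the fasted level, 4 of the 10 largest rises with fasting are described here. Agt, encoding angiotensinogen, was at 25.7, 54.7, 34.1, 29.8 and 31.7 CPM in fed cKO, 40.4, 36.0, 24.8, 37.3 and 40.8 CPM in fasted wild type and 5.22 ± 1.68 CPM in fed wild type (SD, n = 5). The groups overlapped, with fed cKO replicate 2 above every fasted library, and the log2 difference was -0.02 with an interval of -0.46 to 0.42. Agt is also an astrocyte marker, and the other 7 markers of that list summed to 4.45 to 7.70 CPM in fed cKO, 5.97 to 23.7 CPM in fasted and 5.54 to 13.5 CPM in fed wild type. Slc15a2, a peptide transporter, was at 10.3, 9.30, 9.95, 13.1 and 9.22 CPM in fed cKO, 7.36 to 14.9 CPM in fasted and 1.64 to 4.74 CPM in fed wild type, a log2 difference of -0.04 with an interval of -0.51 to 0.44. Gpr6, a constitutively active cAMP-coupled receptor, was at 22.9 CPM with 28.8 CPM fasted and 8.39 CPM fed, and its difference of -0.32 ± 0.12 (edgeR adjusted p = 0.023) did not pass without fed cKO replicate 1 or 4 or fasted replicate 1 (adjusted p 0.054 to 0.069), nor without fasted replicates 1 and 2 together (-0.23, adjusted p = 0.15). Hs3st1, a heparan sulfate sulfotransferase, was at 109 CPM with 140 CPM fasted and 54.3 CPM fed. Falls that fed cKO matched within 1.5-fold included Ubtf, a factor of ribosomal DNA transcription, at 26.8, 23.8 and 43.3 CPM in that order, and Orai1, a calcium channel subunit, at 4.11, 4.57 and 8.69 CPM.

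**Figure D5:**
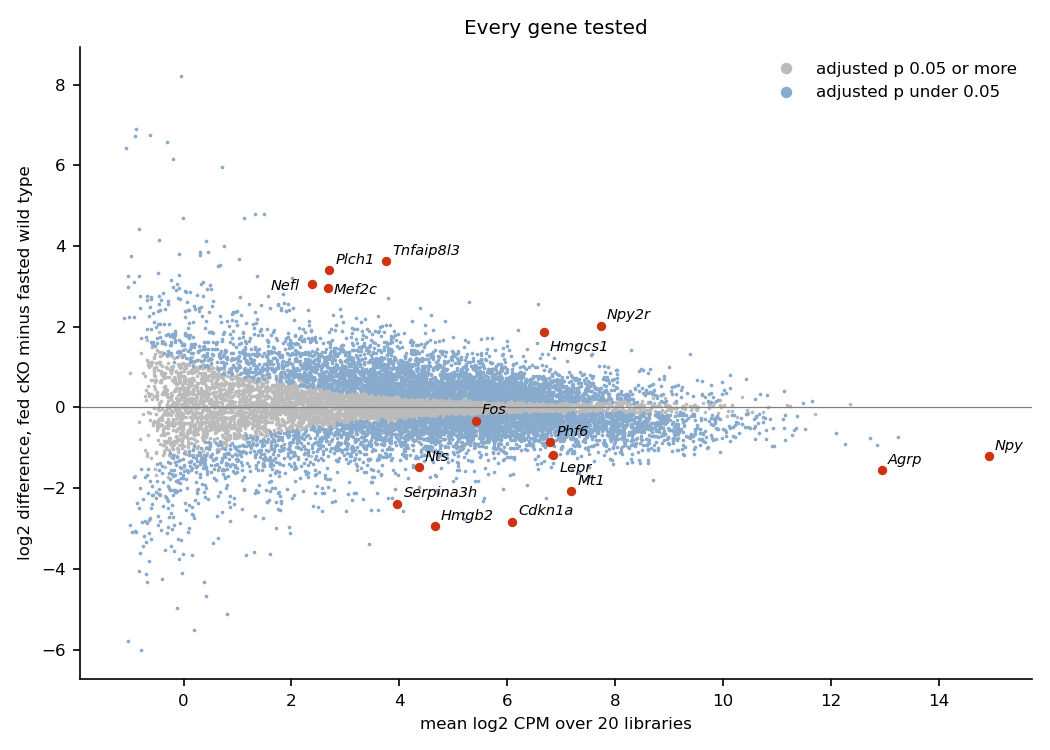
Log2 difference, fed cKO minus fasted wild type, against mean log2 CPM over 20 libraries for each of 13237 genes, with 16 genes named. Fos lies near 0 on the vertical axis, Agrp, Npy, Lepr, Mt1 and Cdkn1a lie below it and Npy2r, Hmgcs1, Mef2c, Nefl and Tnfaip8l3 above it.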

How the data were processed

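RNA was measured in 20 libraries of sorted tdTomato+ AgRP neurons, in 4 groups of 5 by genotype and feeding as labelled. Complementary DNA was amplified with SMART-seq v4 over 15 cycles and tagged with Nextera XT, which does not keep strand, per the labels' protocols. The deposited values are raw counts of reads per gene from featureCounts (Subread 1.6.2) after Trimmomatic 0.36 and HISAT2 2.1.0 on GRCm38 (mm10), per the submitters' processing notes, which also name DESeq2 1.20.0. The annotation and strand setting of the counts were not given in the sources used here.

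Counts were tested with edgeR 4.0.16 (R 4.3.3) by the quasi-likelihood method, with TMM scaling, the edgeR low-count filter (minimum count 10, total 15) and 4 group means over all 20 libraries, which share one estimate of the spread. P-values were adjusted by Benjamini-Hochberg over 13237 of 23129 genes, with calls under 0.05. The 95% interval of each log2 difference gave the genes within 1.5-fold. CPM use TMM-scaled library sizes. Positions and overlaps come from GENCODE M21 (95.4% of gene names matched). Promoters come from RefSeq (GRCm38.p6). Named genes were the feeding peptides and Phf6, members of 27 gene lists, the 15 highest and 15 lowest log2 differences with separate groups and mean log2 CPM not under 2, and the 10 largest rises and falls with fasting within 1.5-fold, from which the text takes 121. The members and lists were chosen with earlier results of these data known, so no p-value over a list is given. No 2 libraries of a group agreed within sampling noise (chi-square over degrees of freedom of 3.36 or more). Alternatives used DESeq2 1.42.0, other scaling and filters, a replicate block, libraries left out, and offsets for GC content and length.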

Additional observations from a re-analysis of the deposited data

Results flagged for a closer look

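With 5 libraries a group, 20 of the 363 sets of values for the named genes (3 groups each) had 1 library far from the other 4. Chance gives about 1 in 20 over all sets, but the flags were uneven, with most in fed cKO and fewest in fasted wild type. The rule looks for 1 library apart, so it does not flag a split of 2 fasted libraries from the rest. In fed cKO, replicate 2 was highest for Egr1 (48.6 CPM, others 31.2 to 34.1), Rgs4 (631 CPM, others 504 to 540), Scg2 (4176 CPM, others 3643 to 3796) and Slco1a1 (5.68 CPM, others 2.39 to 3.33), and lowest for Ssr2 (189 CPM, others 220 to 224). Replicate 1 was lowest for Agrp (4369 CPM, others 5100 to 5347), Fkbp11 (16.5 CPM, others 20.9 to 21.9) and Rpl3 (1127 CPM, others 1179 to 1192), and highest for Gal (18.8 CPM, others 9.58 to 12.02). Replicate 5 was lowest for Crem (136 CPM, others 147 to 150) and Fosl2 (5.62 CPM, others 7.24 to 7.45) and highest for Jun (60.4 CPM, others 47.8 to 51.2), and replicate 4 was lowest for Atf4 (88.1 CPM, others 102 to 107) and highest for Slc15a2 (13.1 CPM, others 9.22 to 10.3).

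In fasted wild type, replicate 1 was highest for Nr4a1 (23.1 CPM, others 13.9 to 15.5) and Hmgcs1 (59.6 CPM, others 38.4 to 43.3). In fed wild type, replicate 2 was lowest for Mt2 (2.37 CPM, others 3.24 to 3.58) and highest for Stat5b (31.3 CPM, others up to 30.05), and replicate 3 was highest for Hmgb2 (12.6 CPM, others 7.48 to 8.83) and lowest for Sel1l (99.1 CPM, others 109 to 112).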

How the results depend on the processing

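Across the 20 alternatives, the genes higher in fed cKO than in fasted wild type numbered 3566 to 3981 and those lower 3439 to 3902, and those within 1.5-fold 3831 to 5146, each within 1.5 times the reported count. With 1 library left out the counts were 3676 to 3818 higher, 3527 to 3641 lower and 4530 to 4747 within 1.5-fold. For fed cKO against fed wild type, genes lower numbered 332 to 621 with 1 library left out, and 865 and 846 in place of 504 when fasted replicates 1 and 2, or 3 to 5, were left out of the shared estimate of the spread. With a replicate block there were 3935 higher, 3663 lower and 4797 within 1.5-fold. The numbers were not treated as pairs, since same-numbered libraries had deviation correlations of -0.03 to 0.02 and 0 of 5 fed cKO libraries correlated best with their own number. Under the replicate block Btg2 no longer passed (-0.34, adjusted p = 0.067) and Sik1 passed (0.55, adjusted p = 0.041).

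Of the 121 genes named, 101 kept their direction and side of the threshold in all 20 alternatives, and the others are given beside their values in the report or here. Differences changed sign for Btg2 (0.16) and Crem (0.13) without fasted replicates 1 and 2. Agt, reported at -0.02, was 0.034 without those and -0.24 to 0.070 with 1 library left out, above 0 without fed cKO replicate 1, 4 or 5 or fasted replicate 1 or 5. Slc15a2, reported at -0.04, was 0.32 without fasted replicates 3 to 5 and -0.14 to 0.11 with 1 library left out. The median of the potassium channel list went from 0.12 to -0.076 with GC and length offsets. The cause was not tested. Fed cKO libraries held more counts than fasted ones, and genes under a few counts per library were not tested. The 2 fasted subsets limit what a mean over 5 fasted libraries describes.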
